A study of Sus scrofa with 9 samples.

Results

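Long bright stretches of an oligonucleotide array were examined, which were 17 runs of 7 or more neighbouring probes holding 161 of the 12544 probes on the array. The array was made for pig (Sus scrofa) microRNAs, to show where their 5′ ends lie. Small RNA from 20 tissues of pigs of 12 months of age, of the breed that the labels call vietnamite, was pooled and copied into cDNA. The same material went onto the array in 3 separate hybridizations, each read at low, medium and high PMT, the gain of the scanner's photomultiplier, so that 9 scans fell into 3 groups of 3. No untreated or blank sample was among these scans, and a single pool was used throughout, so differences between scans are technical. The same array number stands in all 9 labels and the methods describe reuse of stripped arrays, so the hybridizations may share a physical array.

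MicroRNAs are short RNAs cut from hairpin precursors, and they repress messenger RNAs through base pairing that is led by the seed, a stretch close to the 5′ end. A shift of the 5′ end by a single nucleotide therefore changes the seed, which is why the exact end matters. In RAKE (RNA-primed array-based Klenow extension) a nucleic acid bound to a probe is used as a primer, and Klenow polymerase extends it when its 3′ end is paired with the probe. Since the cDNA is the reverse copy of a microRNA, its 3′ end stands for the microRNA's 5′ end. The paths on this array hold 16 probes, each moved by a single nucleotide along the precursor, and the added biotin-dATP is seen through Cy3-streptavidin.

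The members were chosen by their own intensity. A probe was called bright when, at medium PMT, its log2 intensity exceeded the scan's median by more than 3 scaled median absolute deviations in each of the 3 hybridizations, and bright probes with consecutive numeric IDs were joined into runs. The cut lay at 11897, 12819 and 10185 units in hybridizations 1, 2 and 3. In all, 440 probes in 143 runs were bright: 161 in the 17 runs of 7 or more, 117 in 25 runs of 4 to 6, 106 in 45 runs of 2 or 3, and 56 alone. Length and brightness at medium PMT are thus given by the choice, as is a neighbour beyond each end that missed the cut in at least 1 medium PMT scan, and they are described without a test. Probes carry an ID only, and probe sequences and the hairpins they belong to were not used here. A difference between neighbouring IDs is a difference in fluorescence between oligonucleotides of different sequence, and not a measured difference in the amount of RNA.

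Hybridization 1 stood apart from the others in brightness. Its median over all probes was 358.5, 605 and 939.75 units at low, medium and high PMT, against 858.5, 1295 and 2378 units in hybridization 3. Of the 17 runs, 15 had their lowest mean log2 intensity at low PMT in hybridization 1, 1 in hybridization 2 and 1 in hybridization 3. Relative to the scan medians, 11 runs were highest in hybridization 1, 5 in hybridization 2 and 1 in hybridization 3, so the order of the hybridizations depended on scaling. Ranks of the run means at low PMT were more alike between hybridizations 2 and 3 (Spearman's rho 0.966 over 17 runs) than between 1 and 2 (0.784) or 1 and 3 (0.808). These are descriptions over runs that share the probes and the RNA pool.

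The lengths were concentrated at 9 and 10 probes. There were 7 runs of 9 probes and 4 of 10, so that these lengths made up 11 of the 17 runs. A further 2 runs held 7 probes, and 1 run each held 8, 11, 12 and 13. All 17 were thus shorter than a path of 16 probes. This depended on the cut, since at 2 scaled median absolute deviations the longest run held 17 probes. The first run began at ID 2157 and the last ended at ID 12482. The first 2156 IDs held 114 bright probes and 10 runs of 4 to 6, but 0 runs of 7 or more. Up to ID 3136 there were 2 run starts and 147 bright probes, from there to ID 6272 there were 3 and 77, from there to ID 9408 there were 8 and 100, and in the remaining IDs there were 4 and 116. Neighbouring runs were separated by 28 to 2078 IDs.

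The runs were next read in a hybridization that had not chosen them. Runs of 7 or more chosen from hybridizations 1 and 2 held 161 probes, and all 161 were above the cut of hybridization 3, which 5.69% of all probes exceeded. Runs chosen from hybridizations 2 and 3 held 168 probes, of which 167 (99.4%) were above the cut of hybridization 1, against 4.31% of all probes. Runs chosen from hybridizations 1 and 3 held 191 probes, of which 176 (92.1%) were above the cut of hybridization 2, against 4.16% of all probes. Hybridization 2 therefore left 5 of 20 such runs incomplete, while hybridization 1 left 1 of 18 and hybridization 3 left 0 of 17. These shares describe repeatability within a single RNA pool and probe set, with no test.

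The level inside the runs was far above that of the array. At low PMT the members ran from 7149 to 65535 units with a median of 25008 in hybridization 1, from 8134 to 65535 with a median of 47483 in hybridization 2, and from 7925 to 65535 with a median of 55992 in hybridization 3. The medians of all probes in these scans were 358.5, 631.5 and 858.5 units. On the log2 scale the median member stood 6.12, 6.23 and 6.03 above the median of its low PMT scan, while the median probe in runs of 4 to 6 stood 5.27, 4.79 and 4.64 above it and the median single bright probe 5.24, 4.25 and 3.83 above it. In all 3 hybridizations the long runs were thus the brightest of these classes, with no test because brightness chose them.

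Many members had reached the top of the 16-bit scale, 65535 units, at which a probe has only a lower bound. At low PMT 5, 53 and 62 of the 161 members were at this ceiling in hybridizations 1, 2 and 3, at medium PMT 49, 89 and 104, and at high PMT 86, 125 and 129. As a mean over hybridizations the share at low, medium and high PMT was 24.8% ± 19, 50.1% ± 17.7 and 70.4% ± 14.8 of members (SD, n = 3), against 0.569% ± 0.377, 1.04% ± 0.37 and 1.63% ± 0.408 of all probes. The members held 49 of the 75 probes that reached it in every medium PMT scan, but 5 of the 20 that reached it in all 9 scans. Those 5 members lay in the runs of IDs 6310 to 6318 and 8228 to 8237. In the low PMT scan of hybridization 1, the share at the ceiling was 3.11% in runs of 7 or more and 10.4% in runs of 2 or 3, whereas in the low PMT scans of hybridizations 2 and 3 it was 32.9% and 38.5% in runs of 7 or more and 15.1% and 24.5% in runs of 2 or 3.

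The ceiling flattened whole runs as the gain was raised. At low PMT 10 of the 17 runs had a ceiling member in at least 1 scan, 10 of them in hybridization 2, 9 in hybridization 3 and 2 in hybridization 1. At medium PMT 3 runs were at the ceiling over their full length in all 3 scans, and at high PMT 6 were. Only 4 runs had no ceiling member in any medium PMT scan, and 1 run, of IDs 2157 to 2163, had none in any of the 9 scans. Of the 161 members 23 were below the ceiling in every scan. Low PMT was therefore used to describe shape.

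Shape at low PMT was described by the range between the highest and the lowest member of a run, on log2 levels taken relative to the scan median and averaged over the 3 hybridizations. A run with a range of 1 or less, which is a 2-fold difference, was called a plateau. A wider run was called a ramp if Spearman's rho of level with ID order was 0.8 or more in either direction, a peak if an inner member was at least 1 above both ends, and otherwise mixed. By these terms 10 runs were plateaus, 7 were mixed, 0 were ramps and 0 were peaks. The median range was 0.75. The choice itself limits the range, since members lie between the cut and the ceiling, which were 3.62, 3.20 and 3.32 apart at low PMT on the log2 scale in hybridizations 1, 2 and 3 and 2.46, 2.35 and 2.69 apart at medium PMT. All 17 ranges were below these limits.

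Flatness and the ceiling went together. Of the 10 runs with a ceiling member at low PMT 8 were plateaus and 2 were mixed, whereas of the 7 runs without one 2 were plateaus and 5 were mixed. In those 7 runs, where the range was measured in full, it ran from 0.54 to 1.37 with a median of 1.23. The share of the ceiling in the plateau count was not tested. Read scan by scan, 10, 8 and 12 runs were plateaus in hybridizations 1, 2 and 3, again with 0 ramps and 0 peaks in each, and 9 of the 17 runs had the same class in all 3. Runs of 4 to 6 were plateaus in 20 of 25 cases, with 2 ramps, 1 peak, 2 mixed runs and a median range of 0.71, but a run of fewer probes has fewer chances to vary.

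Inner steps were wider in runs without a ceiling member at low PMT than over all 17 runs, and the cause was not tested. Over 144 inner steps the median absolute difference was 0.15 on the log2 scale, against 0.26 between neighbouring IDs over the whole array. In the 7 runs without a ceiling member at low PMT it was 0.32 over 57 inner steps, and in 5 of these 7 runs the median inner step was above that of the array. An inner step of over 1 occurred 3 times, and in 14 of the 17 runs the largest inner step was under 1. The highest member was at an end of the run in 4 runs and the lowest was at an end in 6, of which 4 were at the last ID and 2 at the first. The dimmest member therefore lay inside the run in 11 of 17 cases, but inner members outnumber the 2 ends in every run. Probes at the ceiling share a value, so steps between them are 0 and the inner median is a lower bound.

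The longest run, of 13 probes with IDs 5792 to 5804, was mixed, with a broad top and a fall towards its upper end. At low PMT its highest member by mean level, ID 5799, had 27240, 31187 and 52245 units in hybridizations 1, 2 and 3. Its last member, ID 5804, had 10022, 14712 and 23195 units. A notch within the run, ID 5800, had 21015, 16788 and 35135 units, below both of its neighbours in hybridizations 2 and 3 and above the next ID, 5801 with 18410 units, in hybridization 1. The range of the run was 1.23, and no member was at the ceiling at low PMT.

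The run of 12 probes, IDs 2532 to 2543, was a plateau by its averaged range of 0.63, with a low first member and a dip. ID 2532 had 28719, 50628 and 48917 units at low PMT, and the next probe, ID 2533, had 60659 units in hybridization 1 and was at the ceiling in hybridizations 2 and 3. In hybridization 1, where no member was at the ceiling, ID 2536 was down to 30328 units and ID 2542 was up again at 59691 units. The dip was seen in the other hybridizations too, with 49936 and 50041 units at ID 2536 in hybridizations 2 and 3. The range was 1.09 in hybridization 1, and 0.39 and 0.42 in hybridizations 2 and 3, in each of which 7 of 12 members were at the ceiling. The run of 11 probes, IDs 7374 to 7384, behaved in the same way: its range was 0.95 in hybridization 1 with 0 members at the ceiling, and 0.22 and 0.11 in hybridizations 2 and 3 with 4 and 9 members at it.

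The flattest run was that of IDs 3203 to 3211, with a range of 0.09. All 9 members were at the ceiling in hybridizations 2 and 3 at low PMT, so only hybridization 1 measured its shape. There the 9 members ran from 42912 units at ID 3206 to 51569 units at ID 3204, a range of 0.27. The widest run was that of IDs 4840 to 4848, with a range of 1.37 and no ceiling member at low PMT. It held a trough: ID 4840 had 29951, 47483 and 56346 units, ID 4844 in its middle had 11842, 24058 and 33201 units, and ID 4846 had 30251, 48548 and 52818 units. All 3 hybridizations showed this trough, and in all 3 the last member, ID 4848, was again low, with 12966, 15985 and 22174 units.

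The run of IDs 6310 to 6318 had the highest mean level at low PMT, 6.73 above the scan median on the log2 scale, and that of IDs 2157 to 2163 the lowest, 4.45 above it. The rank of the highest run rests on hybridization 1, where its mean was 7.28 above the scan median, and its level is a lower bound. In hybridization 2 its mean, 6.66, was below the 6.70 of the run of IDs 3203 to 3211. That run was wholly at the ceiling in hybridizations 2 and 3. In the highest run IDs 6316 and 6317 were at the ceiling in all 9 scans, while ID 6314 had 37897 and 52947 units in hybridizations 1 and 2 and 65405 in hybridization 3. In the lowest run the members ran from 9507 to 18241 units in hybridization 1, from 8198 to 12452 in hybridization 2 and from 10187 to 14132 in hybridization 3. The most ceiling values at low PMT, 19 over the 3 scans, were found in the run of IDs 8228 to 8237. In hybridization 1 this run had 2 levels: its first 5 members had 62562 units or more, and its last 5 had 40012 to 45391 units.

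The remaining runs were described after their values were seen, so that all 17 are covered. Among the mixed runs, that of IDs 7092 to 7101 came closest to a ramp, with a rho of 0.75 with ID order and a range of 1.12. ID 7092 had 28117, 46330 and 63005 units at low PMT, and ID 7100 had 48841 units in hybridization 1 and was at the ceiling in hybridizations 2 and 3. A dip at ID 7096, with 16329, 30640 and 40444 units, broke the rise in all 3 hybridizations. The most jagged was the run of IDs 7472 to 7481, with a median inner step of 0.56: ID 7474 had 22202, 39428 and 55992 units, ID 7476 had 9013, 15267 and 23974, and ID 7477 had 18620, 34215 and 42143. By contrast the run of IDs 9867 to 9875 was a plateau with a range of 0.34, in which 8 and 9 members were at the ceiling in hybridizations 2 and 3. Its members ran from 28585 to 48061 units in hybridization 1, where none was.

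Among the highest IDs there were dimmer runs, though the lowest mean level belonged to the run of IDs 2157 to 2163. In IDs 11954 to 11960 the run had medians of 9769, 16438 and 18781 units at low PMT in hybridizations 1, 2 and 3, with a range of 0.94. That of IDs 12473 to 12482 had medians of 9277, 18577 and 19689 units, with a range of 1.33. Its highest member, ID 12478, had 14387, 28050 and 29186 units, and the last, ID 12482, had 7428, 9305 and 10716, so that the level fell over its last 5 IDs in all 3 hybridizations. A further 2 plateaus by the averaged levels were more than 2-fold dimmer in hybridization 1 than in the others. The run of IDs 7776 to 7784 had a median of 18342 units in hybridization 1, against 65535 and 63948 in hybridizations 2 and 3, and the run of IDs 8865 to 8873 had 10770, against 39101 and 49052.

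A pair of runs was picked, after their values were seen, for the order of the hybridizations by level or for a change of shape. Brightest in hybridization 1 was the run of IDs 12269 to 12276, although that hybridization was the dimmest over the array: ID 12270 had 36476, 16906 and 14576 units at low PMT in hybridizations 1, 2 and 3. Without scaling, the only other run brightest in hybridization 1 was that of IDs 2157 to 2163. In the run of IDs 8902 to 8910 the shape itself differed. ID 8902 had 25763 units in hybridization 1 and was at the ceiling in hybridizations 2 and 3, while ID 8905 had 14330, 14558 and 45257 units. Its range was thus 2.17 in hybridization 2, against 0.91 and 0.53 in hybridizations 1 and 3.

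The fine profile along a run was repeated between hybridizations where the ceiling allowed it to be seen. In the 7 runs without a ceiling member at low PMT, Pearson's r of log2 intensity along the run had a median of 0.903 between hybridizations 1 and 2 (range 0.544 to 0.979), 0.943 between 1 and 3 (0.555 to 0.972) and 0.984 between 2 and 3 (0.856 to 0.995). Each r rests on 7 to 13 neighbouring probes of the same sequences in both scans and is a description. The lowest values with hybridization 1 belonged to the run of IDs 2157 to 2163, in which ID 2163 was the lowest member in hybridization 1 and ID 2157 was the lowest in hybridizations 2 and 3.

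The edges of the runs were steep. At low PMT the median drop from the first member to the ID below it was 6.15, 5.61 and 5.77 on the log2 scale in hybridizations 1, 2 and 3, or 5.84 ± 0.28 (SD, n = 3), a fold of 57.3. The median drop from the last member to the ID above it was 5.42, 5.19 and 5.25, or 5.29 ± 0.12, a fold of 39.1. The lower ID side thus had the larger median drop in all 3 hybridizations, but single runs went both ways. The averaged drop was 7.42 on the lower and 5.29 on the upper side of IDs 4840 to 4848. It was 3.23 and 6.96 at IDs 2532 to 2543. Of the 34 run ends 30 fell by more than 3 within a single ID, 16 on the lower side and 14 on the upper side, and 14 runs did so on both sides. A step of more than 3 was found in 347 of the 12543 neighbouring pairs of the array, or 2.77%. The choice puts the outside ID below the cut in at least 1 medium PMT scan and so favours a drop, and end members at the ceiling make a drop a lower bound.

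The drop was larger at the ends of long runs than at those of shorter ones. On the lower side the median drop at low PMT was 5.84 ± 0.28 in runs of 7 or more, 4.22 ± 0.48 in runs of 4 to 6, 2.59 ± 0.35 in runs of 2 or 3 and 2.50 ± 0.14 at single bright probes (log2, SD over 3 hybridizations). On the upper side it was 5.29 ± 0.12 in runs of 7 or more, 4.00 ± 0.50 in runs of 2 or 3 and 2.56 ± 0.31 at single bright probes. In runs of 4 to 6 it was 2.89, 2.99 and 3.12 in hybridizations 1, 2 and 3. Long runs were also the brightest, and level chose the classes, so length and level cannot be told apart here. How far the drop follows the level was not tested.

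The run of IDs 4840 to 4848 shows such a pair of edges. Its first member had 29951, 47483 and 56346 units at low PMT, while the 3 IDs below it had between 168 and 374 units in all 3 hybridizations. On the other side the last member had 12966, 15985 and 22174 units and the next ID, 4849, had 302, 438.5 and 582.5 units. The run of IDs 8228 to 8237 was bordered by 239, 595.5 and 986.5 units at ID 8227 and by 232, 397.5 and 745.5 units at ID 8238, and the further 2 IDs on each side were within the same range, from 207 to 967.5 units. In both runs signal was lost between adjacent IDs and not over several.

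Outside the runs the sides were not alike. Averaged over the 7 nearest IDs, the median level at low PMT was 1.27, 1.08 and 0.80 above the scan median on the upper side in hybridizations 1, 2 and 3, and -0.55, -0.10 and 0.03 on the lower side. The upper side was higher in 14, 13 and 14 of 17 runs. Over the mean of the hybridizations the upper and lower flanks stood at 1.07 and -0.23 around runs of 7 or more, at 1.45 and 0.94 around runs of 4 to 6, and at 1.08 and 1.67 around runs of 2 or 3. The upper side was higher in 13 of 25 runs of 4 to 6 and in 18 of 45 runs of 2 or 3, in each hybridization. At the eighth ID outside the runs the medians were 0.05 ± 0.05 on the upper side and -0.29 ± 0.14 on the lower side. Further out the upper side stood higher again, at 0.46 ± 0.39 against -0.22 ± 0.16 on the lower side at ID 13 outside and at 0.46 ± 0.12 against -0.02 ± 0.05 at ID 15 outside. The sides were compared after the values were seen, and the counts are a description.

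At 4 run ends the drop was under 3. At the lower end of the run of IDs 2157 to 2163 the drop was 0.10, since ID 2156 missed the cut only in hybridization 2, with 12092 units at medium PMT against a cut of 12819. At the upper end of the run of IDs 12269 to 12276 the averaged drop was 0.09. It was 0.50 and 0.09 in hybridizations 1 and 2, but -0.32 in hybridization 3, where ID 12277 was brighter than the last member, with 9885.5 units at low PMT against 7925. ID 12277 had 12807 units at medium PMT in hybridization 2 and missed the cut by 0.0014 on the log2 scale, while the last member, ID 12276, passed it by 0.04 with 13194 units. The other 2 were upper ends, with a drop of 0.65 in the run of IDs 12473 to 12482 and of 1.96 in that of IDs 2157 to 2163. Next to ID 12482, ID 12483 had 10087, 9797 and 9846 units at medium PMT and missed the cut by 0.39. The members nearest to the cut after ID 12276 were ID 11957, which passed it by 0.08, and ID 2157, which passed it by 0.08. Beyond ID 12276 levels stayed high, with 3 bright probes after ID 12277.

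In 6 places a single ID below the cut parted a run from further bright probes. In 2 of these, IDs 2156 and 12277, the ID was nearly as bright as its neighbours. The others were dimmer than the run end beside them, to different degrees. ID 3212 had 192.5, 283.5 and 494 units at low PMT, between ID 3211 with 48193 units and ID 3213 with 52059 units in hybridization 1, both at the ceiling in hybridizations 2 and 3. The last member before it was 250-fold brighter in hybridization 1 and at least 231-fold and 133-fold brighter in hybridizations 2 and 3. ID 5805, after the run of 13 probes, was 18-, 11.6- and 12.9-fold dimmer than the last member before it, and the next probe, ID 5806, had 16202, 26434 and 35092 units. IDs 2164 and 2531 were dimmer than the end of their run by 2.26- to 11.8-fold. In hybridization 3 ID 2531 was above the cut, with 10847 units at medium PMT against 10185. With single missing IDs bridged inside a run, 24 runs reached the length of 7. They spanned 254 IDs, which include the bridged IDs that missed the cut.

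The phase of the runs on the array was compared with the path length of 16. If paths of 16 started at a fixed remainder of the ID, the junction between paths would show as a weak link between neighbours at that remainder. Over all probes, Pearson's r of the mean log2 intensity at medium PMT between an ID and the next ran from 0.685 to 0.820 over the 16 remainders, and the median absolute step from 0.23 to 0.31. Between 6 and 12 of the 17 runs extended over each of the 16 possible junctions, so no remainder was free of them. Of the 161 members 1 had a bright probe 16 IDs above it and 2 had one 16 IDs below it. At 112 IDs, which is a row of probes should the array have as many rows as columns, 6 of 151 members had a bright probe above and 3 of 161 below. Over the whole array 440 of the 12544 probes were bright, and these counts were not tested against that share. The real layout was not used here.

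The gain of the members was compared with that of the array to see whether brightness scaled alike. From low to medium PMT, members below the ceiling in both scans rose by a median of 0.87, 0.73 and 0.59 on the log2 scale in hybridizations 1, 2 and 3 (112, 72 and 57 members), and all probes by 0.77, 0.68 and 0.59. From low to high PMT they rose by 1.52, 1.82 and 1.45 (75, 36 and 32 members), and all probes by 1.40, 1.73 and 1.47. The other bright probes rose by 1.52, 1.78 and 1.45. In hybridizations 1 and 2 the members' median was above that of all probes, and in hybridization 3 it was below it from low to high PMT. Members that reached the ceiling in either scan are left out, so these medians cover only the dimmer members.

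With each scan centred on its median, departure from the common gain between high and low PMT was tested in limma over all 12544 probes. Without a block 0 of 161 members were called higher and 0 lower at an adjusted p under 0.05, as were 0% and 0% of all probes, while the unadjusted p was under 0.05 for 90 members and for 2.78% of all probes. In a fit blocked by hybridization, which the pairing of the scans warrants, 75 members were called lower and 1 higher, against 7.2% of all probes called lower and 1.81% called higher. All 75 were at the ceiling in 4 or more scans, so their change had only a bound. Of the 23 members below the ceiling in all 9 scans, 0 were called lower and 1 higher, ID 12276, by 0.16 (log2, blocked SE 0.04, adjusted p = 0.0458 in limma). Their median departure was 0.04, with a range of -0.03 to 0.18. This median was -0.02 with centring on the 75th percentile or after subtracting the minimum of each scan, and 0.10 after a normexp background correction. The direction of the median thus depended on the processing. The call on ID 12276 was lost in the blocked fits with 75th percentile centring and with the minimum subtracted. Without hybridization 1 the fit with no block called 81 members, all lower, against 1.04% of all probes called lower, and 0 of the 23 members below the ceiling in all scans were among the 81.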

How the data were processed

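Per the labels and the methods, the authors read 16-bit images of each hybridization with the CombiMatrix imager software, and the deposited values are linear Cy3 intensity per probe and scan. The methods call the deposited files raw quantization output, and whether the imager software subtracts background is not stated there. The values were multiples of 0.5, none was below 0 and no ID was missing. Log2 was taken without a pseudocount. Groups came from the sample labels, and 0 columns were left unused. Because 3 hybridizations of a single pool are technical repeats, p-values measure technical spread only, and their number limits the precision.

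The members, shape terms, tests and lists were chosen with earlier results of these data known. Runs were named by a rule: the 3 longest, those with the highest and lowest mean level and the smallest and largest range at low PMT, and that with most ceiling values. The other 9 runs were described after their values were seen. Median absolute deviations were scaled to a normal SD. Gain was tested two-sided in R 4.3.3 by the lmFit and eBayes functions of limma 3.58.1, with Benjamini-Hochberg adjustment over all probes, in a fit of all 9 scans. Other steps used Python 3.11.15, numpy 2.4.6 and pandas 2.3.3. Scripts were tested on simulated data. Between scans of the same hybridization, residuals from the group means had an r of 0.919 to 0.971 (9 pairs), and between scans of different hybridizations of -0.804 to 0.0831 (18 pairs), so the numbers pair the scans. The path length of 16 was taken from the labels. Probe sequences were not used here.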

Additional observations from a re-analysis of the deposited data

How the results depend on the processing

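Of 64 alternatives 40 left a value within its spread, or a count within 1.5 times, and 24 moved it. Outside these, the median gain departure of the 23 members below the ceiling, 0.04, was -0.02 with 75th percentile centring or minimum subtraction and -0.03 with quantile normalization. It was 0.10 with a normexp background correction and 0.02 to 0.08 with 1 hybridization left out. The 17 runs became 32 at 2 scaled median absolute deviations and 6 at 4, and the 161 members became 327 and 60. With single missing IDs bridged, the runs spanned 254 IDs, which include the bridged IDs that missed the cut. With 1 hybridization left out there were 17 to 20 runs with 161 to 191 members. All 17 runs overlapped a run of 7 or more chosen from the low PMT scans, 15 of them with the same ends. The 10 plateaus became 17 at high PMT, 6 with a range of 0.5, 17 with a range of 1.5 and 2 of 7 among runs without ceiling members, and were 10 to 11 with 1 hybridization left out. The drop on the lower ID side was 5.17 at high PMT and 5.46 to the second ID outside, and 5.69 to 5.96 with 1 hybridization left out. On the upper side it was 4.96 at medium PMT, 4.27 at high PMT, 5.13 to the second ID and 5.50 when scan minima were subtracted first, and 5.22 to 5.34 with 1 left out. The share above the cut in the hybridization not used was 96.3% for hybridization 1 and 97.6% for hybridization 2 at 2.5 deviations. The lowest r over the 16 remainders was 0.703 with ranks and 0.656 without ceiling probes. Members called for gain numbered 76 with the replicate block (1130 of all probes), 86 with 75th percentile centring added (2243), 53 with the minimum subtracted (99) and 1 of 23 without ceiling probes (1324), and 0 to 81 with 1 hybridization left out, 81 without hybridization 1. Causes were not tested. The ceiling limits these values: 66 members reached it in a low PMT scan.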

Other observations

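The length of 9 was looked at over the whole array, after the lengths of the runs had been seen and with no test. The array was cut wherever the mean log2 level at low PMT changed by more than 1 between neighbouring IDs, which gave 1999 cuts. There were 85 stretches of 7 IDs, 51 of 8, 87 of 9 and 40 of 10. With a change of more than 2 there were 35, 15, 34 and 22, and with more than 3 there were 11, 8, 17 and 9. Stretches of 9 IDs were thus more frequent than those of 8 or 10 at each threshold, but stretches of 7 were about as frequent at the lower 2. The long bright runs are part of these counts, and 7 of them held 9 probes. Stretches of 16 IDs, the path length, numbered 19, 9 and 4 at the 3 thresholds.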
